A study of Mus musculus with 4 samples.

Results

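Hepatocytes secrete most of the proteins of blood plasma, and their transcripts for albumin, transthyretin and apolipoproteins are among the most abundant of any cell. They are also zoned along the lobule. Cells beside the central vein make glutamine and carry drug-metabolising P450 enzymes under Wnt signalling, whereas cells beside the portal tract make urea and glucose. The cells described here were the hepatocyte-like cells of mouse liver tumours, chosen by 5 such transcripts: Alb (albumin), Apoa1 and Apoa2 (the main proteins of high-density lipoprotein), Fabp1 (the liver fatty acid binding protein) and Ttr (transthyretin, a carrier of thyroid hormone).

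A cell was a member if it had at least 300 genes, at most 25% of its unique molecular identifiers (UMIs, each one captured transcript) from mitochondrially encoded genes, and at least 50 UMIs of the 5 genes per 10000 UMIs with at least 3 of the 5 detected. It also had to lack UMIs of Ptprc (all leukocytes), Cd3e (T cells), Cdh5 (endothelium) and C1qa (macrophages). In all, 194 of 25715 kept cells were members. They numbered 180 of 8403 in vector replicate 2 (2.14%, Wilson 95% interval 1.85 to 2.47), 9 of 6209 in KLF2 replicate 1 (0.145%, 0.0763 to 0.275) and 5 of 11103 in KLF2 replicate 2 (0.0450%, 0.0192 to 0.105). These intervals, like all those below, cover counting error only, and the shares were not tested because the vector group had 1 library.

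The tumours were raised in male C57BL/6 mice by hydrodynamic tail vein injection, which drives plasmids into liver cells. All mice received the transposase SB100X, a pT3-EF1α-AKT plasmid and a pT3-EF1α-c-MYC plasmid. The vector group also received the pT3 empty vector, and the KLF2 group received pT3-EF1α-KLF2 in its place. Tumours were taken 10 weeks later from mice 18 weeks old, minced, digested and run on droplets. Each library is labelled as a biological replicate, and of the 2 vector libraries replicate 1 was not analysed here because only its cell barcodes and gene names were used. The injected genes are driven by the EF1α promoter in whichever cells took up the plasmids. No label names the species of the plasmid genes, and the name of the AKT plasmid gives no isoform. UMIs of Myc, Akt1 and Klf2 may therefore hold transcripts of the injected genes to an unknown extent.

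The libraries differed in ways that touch every comparison between them. They held 45594544 UMIs in vector replicate 2, 95374838 in KLF2 replicate 1 and 125458473 in KLF2 replicate 2. The median share of mitochondrial UMIs over kept cells was 11.9% in vector replicate 2, and 0.223% and 0.345% in KLF2 replicates 1 and 2. Free RNA also differed. Among Ptprc-positive cells, which are leukocytes and should lack the 5 genes, 73.2% of 3220 vector cells held at least 1 UMI of them, against 7.55% of 715 and 7.22% of 1718 in the KLF2 libraries, at median depths of 4130, 10107 and 6432 UMIs. Members share no barcode name between libraries.

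The values that chose the members are a description. In vector cells the 5 genes together had a median of 129 UMIs per 10000 (51.1 to 424). The lowest member lay at 51.1 and the highest non-member with 3 detected markers at 49.8, so no gap separated the groups there: 18 such cells lay between 40 and 50 and 12 members between 50 and 60. In the KLF2 libraries the cut fell in a gap. KLF2 replicate 1 went from 5.25 to 54.3 per 10000 and KLF2 replicate 2 from 11.5 to 61.9. The 4 exclusion genes had removed 131 of 311 vector cells, 1 of 10 and 0 of 5.

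**Figure D1:**
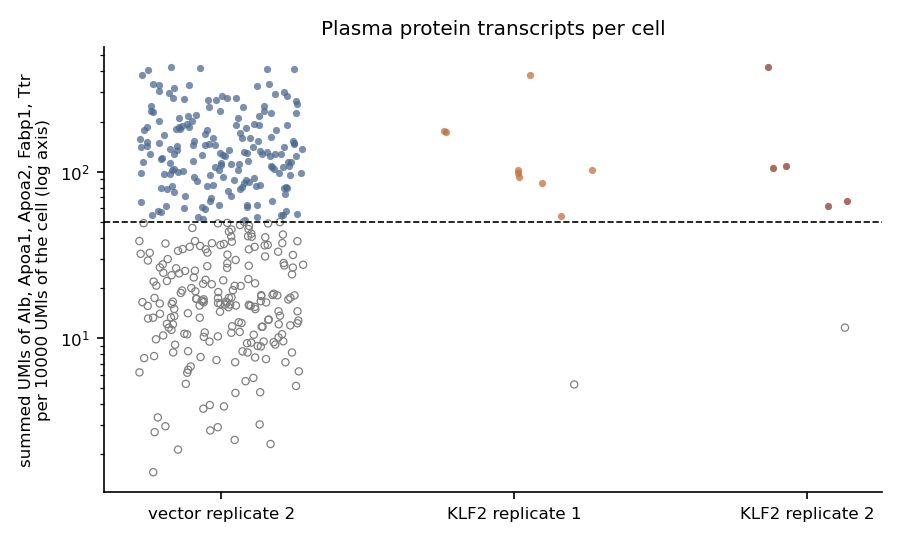
Summed UMIs of the 5 chosen genes per 10000 UMIs of each cell (log axis) in the 3 libraries, for cells with at least 3 of the 5 genes and none of the 4 exclusion genes. Filled points are members, open points are not, and the dashed line is the limit of 50. The vector cells run through the limit without a gap, whereas 1 KLF2 cell of each library lies below it.

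The vector members were shallow, with a median of 2434.5 UMIs (572 to 19616), 707.5 genes and 11.9% mitochondrial UMIs. Beyond the chosen genes, Hnf4a and other hepatocyte genes described below were detected, and so were transcripts of other cell types: 163 of the 180 cells held at least 2 UMIs of markers of other types. These markers summed to 518 CPM (UMIs per 1000000 UMIs of the members) for 11 of 12 detected T and NK cell genes, 549 for 11 of 13 myeloid genes and 568 for 10 of 12 endothelial genes. The same lists reached 5148, 4837 and 1330 CPM in Ptprc-positive cells of the library. Ccl5 was found in 97 members, Cd74 in 94 and Fabp4 in 111. Their part in the results was not tested. For hepatocyte genes, which leukocytes should lack, the level in Ptprc-positive cells of the same library is given below as that of free RNA. Leukocytes can themselves express cycling genes, Myc, Akt1 and Klf2, and for those it is only a comparison.

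Alb and Fabp1 stood in opposite order in the 2 groups, which is why their promoters are shown. In vector cells Fabp1 had 8282 CPM and Alb 1079 CPM. In KLF2 replicates 1 and 2 Fabp1 had 1637 and 456 CPM and Alb 5373 and 6617 CPM. CPM count molecules and are not scaled by length. Fabp1 UMIs outnumbered Alb UMIs in 153 of 180 vector cells, and Alb outnumbered Fabp1 in 7 of 9 and 4 of 5 KLF2 cells. Both genes chose the cells, so no test is given. Alb lies on GRCm38 chromosome 5 at 90460897 to 90476602 and Fabp1 on chromosome 6 at 71199827 to 71205023, both protein coding and on the plus strand. The windows below run from 250 bases before to 50 after each RefSeq start (GRCm38.p6, plus strand, chr5:90460620-90460919 and chr6:71199629-71199928). The promoter table matched 4 of the 5 genes, all but Ttr. Capitals mark GTTAAT, a half-site of the hepatocyte factor HNF1, TATAAA, the TATA box, and CCAAT, searched on both strands with overlaps allowed.
Alb: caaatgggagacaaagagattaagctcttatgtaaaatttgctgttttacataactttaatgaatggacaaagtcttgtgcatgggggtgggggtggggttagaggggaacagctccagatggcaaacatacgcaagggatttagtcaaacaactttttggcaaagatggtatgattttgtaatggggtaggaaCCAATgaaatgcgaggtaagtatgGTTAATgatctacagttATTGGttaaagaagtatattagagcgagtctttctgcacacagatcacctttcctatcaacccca
Fabp1: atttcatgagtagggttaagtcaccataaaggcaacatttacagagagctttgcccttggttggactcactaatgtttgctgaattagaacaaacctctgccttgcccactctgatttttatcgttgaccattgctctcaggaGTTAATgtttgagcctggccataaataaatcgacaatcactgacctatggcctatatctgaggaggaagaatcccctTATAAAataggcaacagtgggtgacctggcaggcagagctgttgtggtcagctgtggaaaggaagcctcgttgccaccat
Both windows hold 1 GTTAAT, which 7.10% of 32851 promoters of that length contain. TATAAA is in 13.6% of them and CCAAT in 37.4%. Only the Fabp1 window holds TATAAA, and only the Alb window holds CCAAT, 1 on each strand.

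Other secreted proteins followed the 5 genes in the vector cells. Apoc1, an apolipoprotein of triglyceride-rich particles, had 4650 CPM in 175 cells, against 204 CPM in Ptprc-positive cells. Trf, the iron carrier transferrin, had 840.5 CPM against 75.6, and Hp, which binds free haemoglobin, 1499.5 CPM in 123 cells against 106. Hnf4a, the nuclear receptor that maintains hepatocyte identity, had 56.5 CPM (40.0 to 77.6) in 30 cells against 3.35. Of the male liver genes, Mup20, a major urinary protein, had 910.4 CPM in 98 cells, and reads can be split among the near-identical Mup genes. Of 20 fetal liver genes 11 were detected and 4 stood above Ptprc-positive cells by their intervals. Over all 14260 genes with 10 or more UMIs in members and Ptprc-positive cells together, 11.8% stood above. Afp had 0 UMIs, which allows up to 4.46 CPM, and Gpc3 had 1. H19, an imprinted noncoding RNA of fetal liver (chromosome 7, 142575529 to 142578143), had 436 CPM in 36 cells against 43.6 CPM in Ptprc-positive cells, Ly6d 122 CPM in 34 cells against 28.1, and the RNA-binding Igf2bp3 14.9 CPM against 1.48. One cell held 73 of the 293 UMIs of H19, and 8 cells held 10 or more.

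Pericentral transcripts outnumbered periportal ones in the vector cells. The 2 lists hold different genes and no normal liver was compared, so a lean to either zone was not tested. The 16 pericentral genes summed to 2066 CPM (1959 to 2178) and the 16 periportal genes to 702 CPM (640.2 to 768), against 182 and 151 CPM in Ptprc-positive cells. Glul, the glutamine synthetase of the cells that touch the central vein (chromosome 1, 153899944 to 153909723), led with 541 CPM (487 to 600.1) in 68 of 180 cells, against 65.3 CPM. Cyp2e1, a P450 that oxidises ethanol, had 278 CPM in 85 cells against 18.9, and Aldh1a1, a retinal dehydrogenase, 319.8 CPM in 81 cells against 17.1. Rgn, a lactonase of vitamin C synthesis, had 234 CPM and Oat, which feeds ornithine carbon into glutamate, 176 CPM in 49 cells. Cyp1a2, a P450 of the same zone, was lower, with 52.1 CPM in 16 cells against 1.76. Axin2, a Wnt feedback gene, had only 2 UMIs, and Lgr5 had 0.

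Among periportal genes the urea cycle and glucose enzymes were present, while several genes that define the zone were near 0. Arg1, the arginase of the urea cycle, had 198 CPM (166 to 234) in 49 cells against 6.31 CPM in Ptprc-positive cells. Ass1 and Asl, the steps before it, had 120.5 and 109 CPM against 30.5 and 22.8. Pck1, the gate of gluconeogenesis, had 106 CPM in 32 cells, and Hsd17b13, a lipid droplet enzyme, 93.7 CPM in 23. In contrast, Cyp2f2 had 6 UMIs, Sds 4, Hal 1, and Etnppl and Hsd17b6 had 0. Cps1, the first enzyme of the urea cycle, had 8. Ctsc, at 7.44 CPM, was below its level of 74.7 CPM in Ptprc-positive cells. Of the midzonal genes Hamp, the iron hormone hepcidin, had 361 CPM in 28 cells, with 73 of its 243 UMIs in 1 cell.

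**Figure D2:**
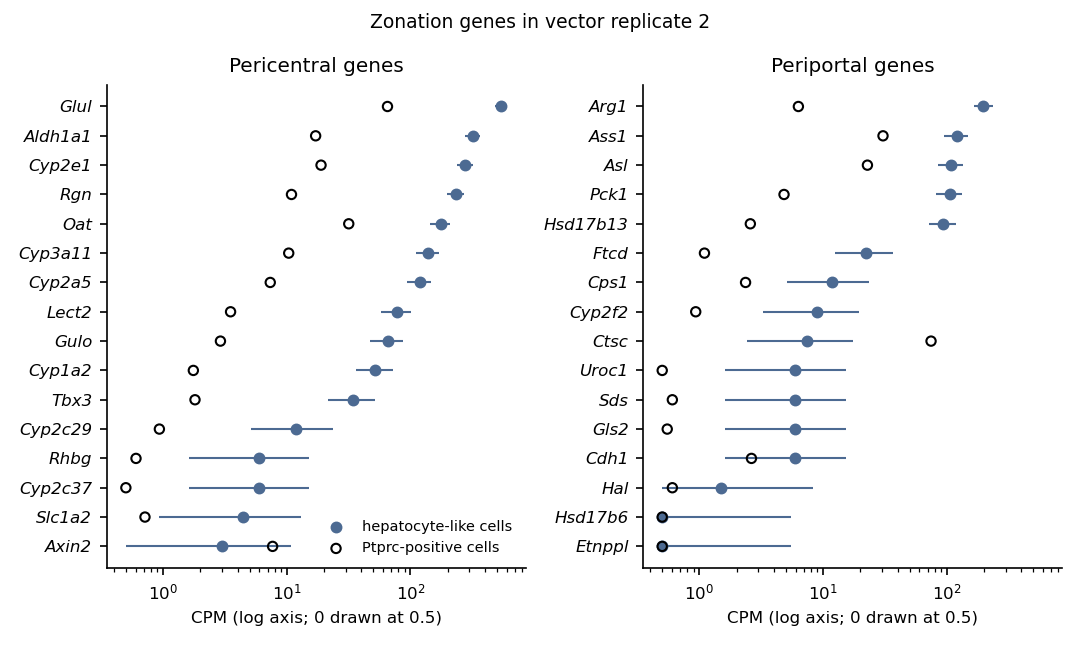
CPM (log axis) of 16 pericentral and 16 periportal genes in the hepatocyte-like cells of vector replicate 2, with exact Poisson 95% intervals, beside Ptprc-positive cells of that library (open circles). Glul to Tbx3 lie above the open circles, as do Arg1 to Hsd17b13, whereas Hal, Hsd17b6 and Etnppl lie at or near 0.

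Single cells mostly held both kinds of transcript. Of 180 vector cells, 159 had a pericentral and 124 a periportal UMI, 111 had both, 48 only pericentral, 13 only periportal and 8 neither. Pericentral UMIs outnumbered periportal ones in 126 cells and were fewer in 32. After each cell was thinned to 1000 UMIs, which kept 173 cells, 50 had both and 69 only pericentral UMIs. The Spearman correlation of the 2 counts over those 173 cells was 0.0296, a description over cells of 1 library that share its free RNA.

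Glul marked a subset of the vector cells in which other genes differed. The split was chosen after the values were seen and is a description. Among cells of at least 2000 UMIs, 50 held a Glul UMI and 70 did not, at median depths of 3451 and 3741.5 UMIs and median mitochondrial shares of 8.87% and 11.1%. Oat stood at 323 CPM with Glul and 55.3 without, Rgn at 384 and 143, and Cyp2e1 at 364 and 201. The other pericentral genes of the split had overlapping intervals: Aldh1a1 at 392 and 285, Cyp2a5 at 137 and 114, Cyp1a2 at 48.5 and 58.2 and Lect2 at 52.6 and 96.1. The periportal Arg1 stood at 109 and 256, Ass1 at 56.6 and 166, and Hsd17b13 at 12.1 and 163. Asl (105 and 99.0) and Pck1 (64.7 and 78.6) had overlapping intervals. The acute phase protein Hp stood at 841 and 1985 and the fibrinogen chain Fgb at 93.0 and 317. Glul itself was uneven: 25 cells had at least 5 UMIs, and the 10 highest held 163 of its 364 UMIs.

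By their intervals 6 of 24 mitosis genes stood above Ptprc-positive cells in the vector members and 5 below. Of the 14260 genes counted for the fetal list, 11.8% stood above and 24.5% below. Mki67, the proliferation antigen, had 11 UMIs in 9 cells, 16.4 CPM (8.17 to 29.3) against 90.2 CPM in Ptprc-positive cells. Top2a, the mitotic topoisomerase, had 32.7 CPM in 13 cells against 102. No cell held both. Spc24, a subunit of the Ndc80 complex that ties chromosomes to the spindle (chromosome 9, 21755442 to 21760303), stood higher than in Ptprc-positive cells, at 263 CPM (226 to 305) in 62 cells against 56.2. Birc5, the survivin of the chromosomal passenger complex, had 118 CPM against 63.2, and Cdc20, an activator of the anaphase-promoting complex, 83.3 against 29.1. Ube2c, the ubiquitin ligase partner that degrades cyclins, had 119 CPM against 114.

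Counted per cell, 76 of 180 vector cells (42.2%, 35.2 to 49.5) had at least 2 UMIs of the 24 mitosis genes, and 61 did when Spc24 was not counted. Among the 17 cells with under 2 UMIs of other cell types' markers the share was 17.6% (6.19 to 41.0). Those cells were shallower, with 27579 UMIs over 17 cells against 672216 over 180, and neither share was thinned to equal depth. Thinned to 1000 UMIs the share was 17.3% (12.4 to 23.7) of 173 cells, against 10.6% (9.57 to 11.7) of 3180 Ptprc-positive cells, both with Spc24. Without Spc24, 23 of the 173 members were left, and the Ptprc-positive share was not counted that way. For the 20 S-phase genes the thinned share was 6.36% (3.59 to 11.03) against 8.65% (7.72 to 9.68). The S-phase genes summed to 379 CPM in members and 588 in Ptprc-positive cells, and Pcna, the replication clamp, to 49.1 and 80.5. The 5 cells richest in mitosis genes held 241 of the 698 UMIs of the list.

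Myc, the transcription factor of the injected pair (chromosome 15, 61985391 to 61990374), had 43 UMIs in 35 vector cells, 64.0 CPM (46.3 to 86.2), with at most 3 UMIs in a cell. Among the 17 cells with under 2 UMIs of other types' markers, which held 27579 UMIs in all, 5.88% held Myc. It stood there at 36.3 CPM (0.918 to 202), an interval that includes both 64.0 and the 29.8 CPM of Ptprc-positive cells. Thinned to 1000 UMIs, 7.51% of members and 2.86% of Ptprc-positive cells held a Myc UMI. Akt1, an AKT kinase gene (chromosome 12, 112653821 to 112674884), was higher at 354 CPM (310.5 to 402) in 68 cells, against 71.2 CPM. Of thinned cells 23.7% held it, against 5.63%. The name of the other plasmid gives no AKT isoform. Akt2 had 20.8 CPM (11.4 to 34.9), below the 38.1 CPM of Ptprc-positive cells. Klf2 had 125 CPM (99.7 to 155) in 58 cells, below the 407 CPM of Ptprc-positive cells. Of nucleolar genes known as MYC targets, Ncl had 1261 CPM against 746 in Ptprc-positive cells.

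Myc and Akt1 transcripts occurred together and with mitosis and nucleolar genes. Of the 35 vector cells with a Myc UMI, 26 also held Akt1. Akt1 cells were deeper, so the split is given for cells of at least 2000 UMIs, 59 with and 61 without Akt1, whose median depths (4695 and 2943 UMIs) and mitochondrial shares (7.02% and 12.5%) still differed. Myc stood at 86.8 CPM with Akt1 and 27.0 without. Ube2c stood at 193 and 36.0, Birc5 at 176 and 54.0, Top2a at 54.3 and 4.50, and Ncl at 1726 and 719.8. Srm, a polyamine synthase, stood at 174 and 31.5. H19 stood at 569.8 and 333 and the surface protein gene Ly6d at 182 and 54.0. Single cells held 73 of the 210 H19 UMIs and 27 of the 67 Ly6d UMIs found with Akt1. Split by Myc at the same depth, H19 ran the other way, at 357 CPM in 30 cells with Myc and 556 in 90 without.

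Several genes were lower with Akt1 in the Akt1 split, which, like its genes, was chosen after the values were seen. Glul stood at 201 CPM in cells with Akt1 and 904 without, Cyp1a2 at 16.3 and 117, Cyp2e1 at 189.9 and 400.4, and Pck1 at 13.6 and 171. The acute phase gene Saa2 stood at 5.43 and 207, and hepcidin (Hamp) at 185 and 706. Serpina1e stood at 35.3 and 495, although reads can be split among near-identical Serpina1 genes, as also for Saa2 and Saa1. Alb was lower with Akt1 (695 and 1377) and Fabp1 higher (9416 and 7089.9), while the intervals of Apoa2 (4694 and 4409), Arg1 (176 and 225) and Hsd17b13 (122 and 63.0) overlapped. The part of depth and mitochondrial share in these differences was not tested.

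**Figure D3:**
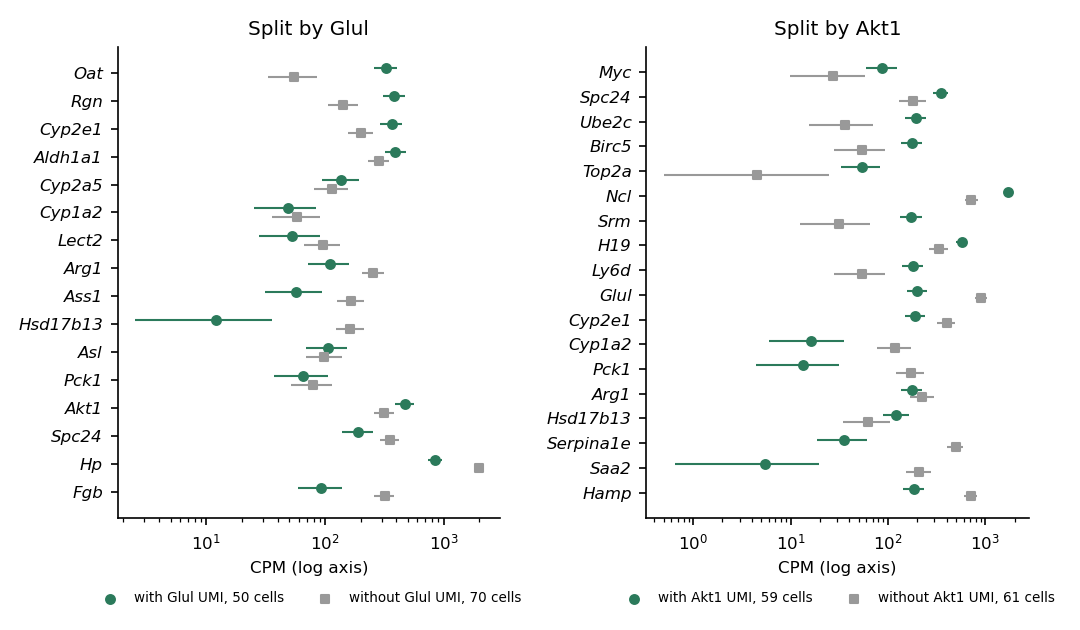
CPM (log axis) with exact Poisson 95% intervals in vector cells of at least 2000 UMIs with (circles) and without (squares) a UMI of Glul (left) or Akt1 (right). Oat, Rgn and Cyp2e1 are higher in the 50 Glul cells and Arg1, Ass1 and Hsd17b13 lower, while the intervals of Aldh1a1, Cyp2a5, Cyp1a2 and Lect2 overlap. Myc, Ube2c and Birc5 are higher in the 59 Akt1 cells and Glul, Cyp1a2 and Saa2 lower.

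The most variable genes among vector cells were partly single-cell effects. Over 1552 genes of at least 0.05 UMIs per thinned cell, the median ratio of variance to mean was 1.15. Gm42418, which overlaps rRNA genes, led at 55.0 and held 189084 of the members' UMIs, followed by Gm26917 (19.3), Msmp (12) and Hamp (8.33). All 82 UMIs of Msmp lay in 1 cell, the member nearest the limit. That cell of 6659 UMIs also had 53 of the 202 Clu UMIs, 13 of Spp1, 5 of 9 Sox9 and 4 of 7 Epcam UMIs, genes known from bile duct cells, and 27 UMIs of Alb but 1 of Fabp1. Spp1 (5.88) was also uneven, with 48 of 73 UMIs in another cell. Apoe (5.53), Cyp1a2 (5.26), Fabp1 (5.04), Hp (4.79), Tmsb10 (4.73), H19 (4.68) and Glul (4.47) followed, beside the mitochondrial mt-Co1 (8.14), mt-Co2 (7.15) and mt-Atp6 (4.56). The keratins Krt8 and Krt18 each occurred in 81 cells (419.5 and 281 CPM).

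The KLF2 libraries had 14 such cells. Their summed UMIs, 36663 in replicate 1 and 43826 in replicate 2, came largely from a few cells: the deepest held 27.9% and 46.9%. A count of 0 over both libraries allows up to 37.3 CPM. Free RNA of the chosen genes was low there, with 1.86 and 5.40 CPM of Alb in Ptprc-positive cells. Markers of other types were found here too, with at least 2 UMIs in 8 of 9 and 3 of 5 cells. T and NK cell genes had 0 UMIs in both, endothelial genes 27.3 and 22.8 CPM, myeloid genes 327 and 639 CPM, and mesenchymal genes 355 and 45.6 CPM against 217 in vector members. In the cells of KLF2 replicate 1 numbered by falling depth, cell 2 was the richest in hepatocyte transcripts, with 131 UMIs of Alb, 143 of Hpx, which binds haem, 112 of Trf and 84 of Ahsg, a carrier of calcium phosphate. Cell 2 of KLF2 replicate 2 resembled it, with 140 of Alb, 154 of Hpx and 75 of Trf.

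Other KLF2 cells owed their place to fewer genes. Cell 1 of KLF2 replicate 1 had 0 UMIs of Alb, Apoa2, Trf and Hpx but 86 of Ttr and 18 of Apoa1. It alone gave 268 of 269 Spink1 UMIs (a trypsin inhibitor raised in some liver tumours), all 249 of H19, all 23 of Igf2 and 14 of 18 of Krt19, a bile duct keratin. H19 was 0 in the other 13 cells. Cell 4 held 48 of the 60 Fabp1 UMIs of its library and all 15 of Acaa1b. Cells 5, 6 and 7 had 551 to 594 genes and 8.91% to 12.6% mitochondrial UMIs, against 0.0822% to 0.382% in the other 6. Those 3 cells also had 534 to 843 Cmss1 UMIs per 10000, against at most 304 in the others.

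Zonation in the KLF2 cells lay in single cells. Cell 1 of KLF2 replicate 2 held 57 of 60 Glul UMIs, all 39 of Slc1a2 (a pericentral glutamate transporter), 16 of Lect2 and 26 of Gulo, with 177 pericentral and 2 periportal UMIs in all. It also held 122 UMIs of Mt1, 43 of Ly6d and 17 of the 18 Akt1 UMIs. Cell 2 of that library was the reverse, with 16 pericentral and 144 periportal UMIs, among them 52 of Arg1 and all 42 of Pck1, and it held 124 of 134 Mup3 and all 103 Mup20 UMIs. In KLF2 replicate 1, cell 2 had 3 pericentral and 40 periportal UMIs, 15 of them Arg1, and cell 1 had 18 and 13. The 16 periportal genes summed to 1937 and 3651 CPM in the members of KLF2 replicates 1 and 2. In Ptprc-positive cells of those libraries they summed to 2834 and 793 CPM, of which Arg1 gave 2488 and 450 CPM. Cyp2e1 had 5 and 9 UMIs in the 2 libraries. Cell 3 of KLF2 replicate 2 held 16 of its library's 18 Znrf3, 9 of 17 Nkd1 and 4 of 5 Lgr5 UMIs, genes induced by Wnt signalling. The 15 Wnt target genes summed to 873 and 1688.5 CPM in members, and to 1449 and 1662 CPM in Ptprc-positive cells of those libraries.

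Few cycling transcripts were found in the KLF2 cells. Mki67 had 0 UMIs in both libraries, Top2a 4 and 2, and Spc24 1 and 0. The mitosis genes summed to 464 and 205 CPM against 1038 CPM in vector cells. At least 2 such UMIs were in 3 of 9 (33.3%, 12.1 to 64.6) and 2 of 5 cells (40.0%, 11.8 to 76.9), intervals that include the vector share. Myc had 9 UMIs in 3 cells (245 CPM, 112 to 466) and 5 UMIs in 2 cells (114 CPM, 37.0 to 266). Ptprc-positive cells of those libraries had 295 and 280.0 CPM of Myc, the first inside the members' interval and the other above it. Akt1 had 245 CPM (112 to 466), below the 560.1 CPM of Ptprc-positive cells, and 411 CPM (243 to 649), an interval that includes their 419 CPM. Klf2 had 5 UMIs in each library, 136 CPM (44.3 to 318) and 114 CPM (37.0 to 266), against 405 and 492 in Ptprc-positive cells and 125 CPM in vector members. Whether these UMIs include transcripts of the injected KLF2 is unknown, so they do not measure its expression. The interval of neither library excludes the vector level.

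**Figure D4:**
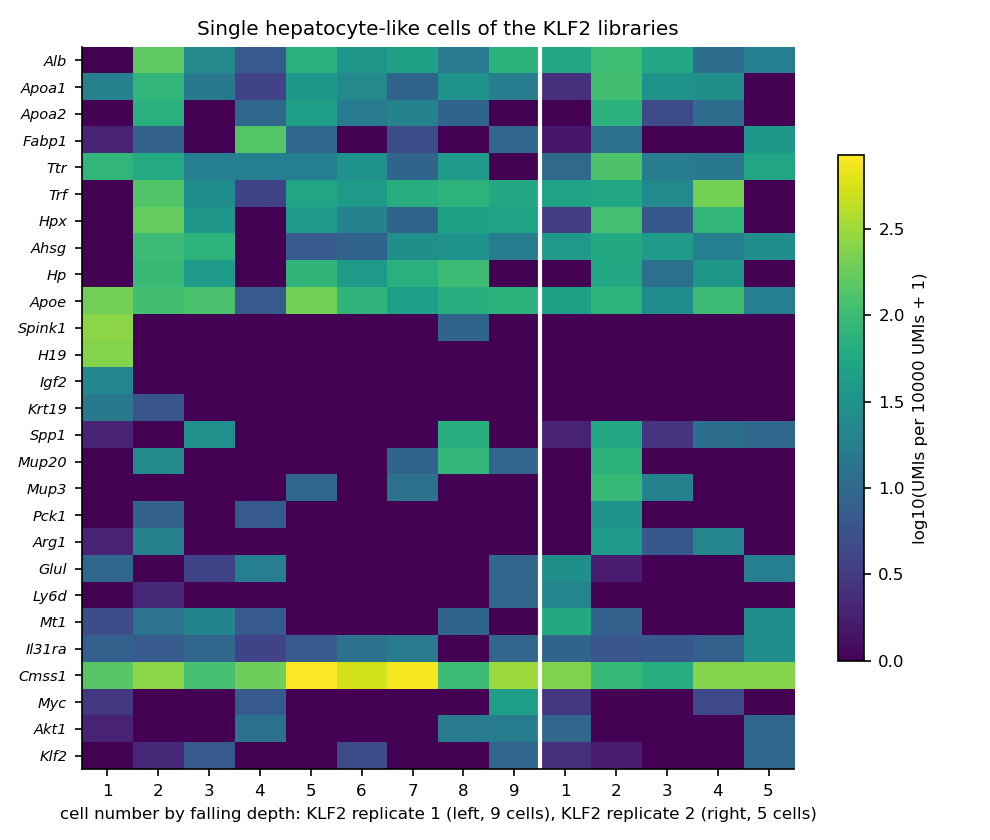
UMIs per 10000 UMIs, on a log10 scale after adding 1, of 27 genes (rows) in the 9 and 5 hepatocyte-like cells of KLF2 replicates 1 and 2 (columns, by falling depth). Spink1, H19 and Igf2 stand in cell 1 of replicate 1, Pck1 and Mup3 mostly in cell 2 of replicate 2, and Il31ra and Cmss1 in nearly every cell.

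The KLF2 and vector cells were then compared gene by gene in summed UMIs. The edgeR quasi-likelihood test called 28 genes higher and 6 lower among 668 tested, 5.09% of them (4.19% higher and 0.898% lower), and 125 had an unadjusted p under 0.05. Fibrinogen chains and serine protease inhibitors were higher in the KLF2 cells, the cytokine gene Mif and the respiratory chain gene Uqcr11 lower. Most other genes called higher were also at least 2-fold higher in Ptprc-positive cells of the KLF2 libraries. The tests rest on 1 residual degree of freedom, with the single vector library taken to be as variable as the KLF2 pair. The 14 KLF2 cells limit the comparison, and leaving out cells with markers of other types left 17, 1 and 2 cells and no called gene.

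Secreted plasma proteins outside the rule had 6 of 27 tested members called higher and 0 lower, where 4.19% of all genes tested were called higher. The list had 30 members, of which 25 had a higher CPM in both KLF2 libraries than in the vector library and 1 a lower one, where 36.4% and 35.9% of all 668 tested genes did. Their median log2 fold change was 2.14 among the tested, beside 0.15 over all genes tested. Tested members had to pass a filter on low counts, which a high count in any single library could meet. All 6 called members were under its cut in the vector library and passed only through the KLF2 libraries, where they were high. These counts and their comparison with 4.19% are therefore a description and lend no support. Fgg, the gamma chain of fibrinogen, had 123 CPM in vector cells and 1173 and 707 CPM in the KLF2 libraries, both above it (log2 fold change 2.996, SE 0.67, edgeR adjusted p = 0.0285). Fgb, the beta chain, had 228, 2100.2 and 1301 CPM (2.98, SE 0.73, edgeR adjusted p = 0.0400). Serpina3k, a protease inhibitor of rodent plasma, had 72.9, 791 and 502 CPM (3.21, SE 0.76, edgeR adjusted p = 0.0349). Serpina1c had 214, 846 and 1506 CPM (2.46, SE 0.57), with the same doubt on its paralogs as above. The other 2 called, named after their values were seen, were Fga, the alpha chain, and Kng1, the kinin precursor.

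These plasma protein genes were not raised in Ptprc-positive cells. Fgb stood there at 20.7 CPM in the vector library and at 0.742 and 1.39 CPM in the KLF2 libraries, and Fgg at 11.4, 0.464 and 0.695 CPM. They were found in several cells, Fgb in 7 of 9 and 4 of 5 and Fgg in 6 and 4, but cell 2 of each library held 59.7% and 77.2% of the Fgb UMIs. With cell 2 of each KLF2 library left out, a choice made after seeing the data, none of the 6 was called, the log2 fold change was 1.86 for Fgb and 2.09 for Fgg, and 12 genes in all were called higher and 0 lower. Cell 2 was not the deepest cell of its library, and without each library's deepest cell all 6 were called. None of the 6 was called by DESeq2, in sums that omitted mitochondrial transcripts and genes overlapping rRNA, or without a filter on low counts, with log2 fold changes of Fgb of 2.98, 2.91 and 1.61. With markers of at least 100 per 10000 UMIs 3 of the 6 were called, and after thinning 2.

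Of the 28 genes called higher, 19 were also at least 2-fold higher in Ptprc-positive cells of both KLF2 libraries than in those of the vector library. Il31ra, a receptor subunit for interleukin 31, had 0 UMIs in vector members and 709 and 707 CPM in the KLF2 members, in 8 of 9 and 5 of 5 cells, at least 159-fold higher by a floor of 3 UMIs over the vector cells (edgeR adjusted p = 0.000353). In Ptprc-positive cells it had 0.274, 364 and 487 CPM. Cmss1, a gene that overlaps Filip1l on the other strand, had 31.2, 31312 and 16611 CPM in members and 11.4, 9528 and 11250.1 CPM in Ptprc-positive cells. The calls of Cmss1 and Id3 were lost without each library's deepest cell, with log2 fold changes of 9.95 in place of 9.66 and 3.82 in place of 3.75. Of the alternative settings that tested each gene, 5 of 8 called Cmss1 and only 1 of 7 called Id3. Zc3h7a, Cdk8, Camk1d, Gphn, Filip1l, Jarid2 and Tcf4 were the same kind, each at least 2-fold higher in both cell types of both libraries, as were Ptn and the BMP target Id3. Cdk8 had 13.4, 5810 and 3902 CPM in members and 15.97, 2343 and 3508 CPM in Ptprc-positive cells. The called genes Gm49804 and Gm20388 were not in the gene list of the vector library and were taken as 0 there. What these genes share with the libraries' low mitochondrial share was not tested.

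**Figure D5:**
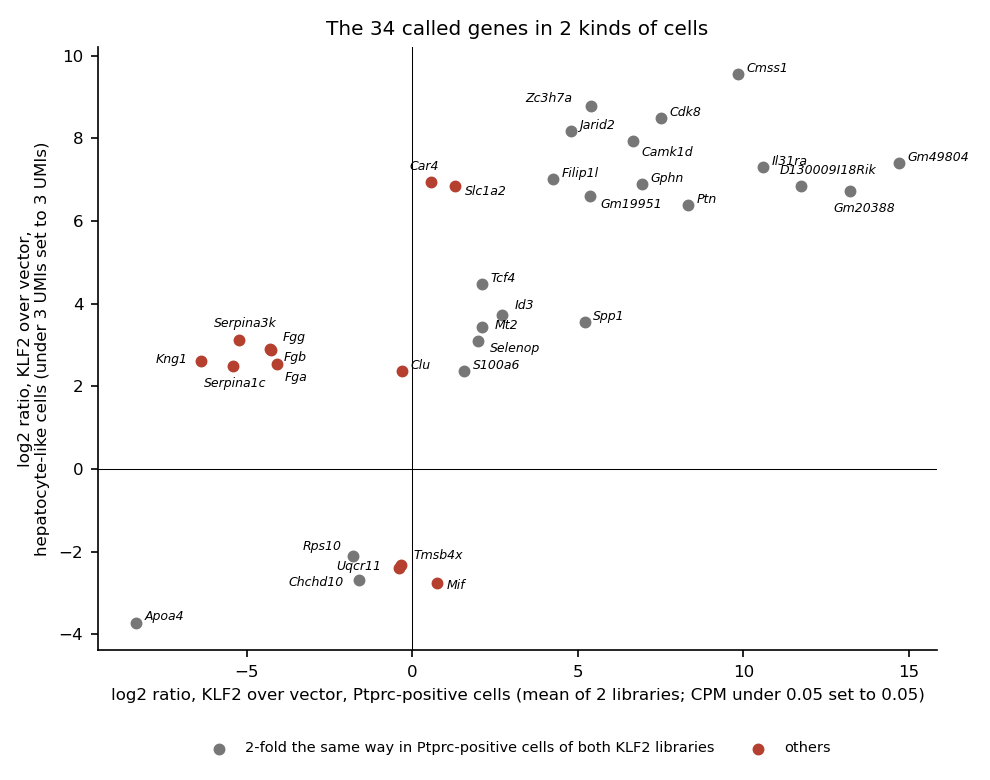
Log2 ratio of KLF2 over vector CPM for the 34 called genes, in Ptprc-positive cells (x axis, mean CPM of the 2 KLF2 libraries, values under 0.05 CPM set to 0.05) and in hepatocyte-like cells (y axis, KLF2 cells pooled, values under 3 UMIs set to 3). Il31ra, Cmss1 and Cdk8 are high on both axes, whereas Fgg, Fgb, Fga, Kng1 and the Serpina genes are higher in hepatocyte-like cells and lower in Ptprc-positive cells.

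The other named rises rested on few cells. Of the alternative settings that tested each gene, 3 of 5 called Slc1a2, 3 of 8 Spp1 and 1 of 7 Mt2. Slc1a2 had 4.46, 54.6 and 890 CPM and was called (log2 fold change 6.51, SE 1.53, edgeR adjusted p = 0.0349), but 39 of its 41 KLF2 UMIs lay in 1 cell. It was the only called gene among 8 tested of the 16 pericentral genes. Of those 16, 3 were higher and 8 lower in both KLF2 libraries. These counts lie near the 18.1% higher and 47.4% lower of all 12232 genes with a UMI in vector members. Of the 16 periportal genes, 7 were higher and 2 lower in both, and 0 of 4 tested were called. Spp1, osteopontin, was the only one called among 4 tested biliary genes, at 109, 546 and 1871 CPM (3.44, SE 0.72, edgeR adjusted p = 0.0191), with 1 cell holding 75 of 102 KLF2 UMIs and 38.4, 1494 and 1354 CPM in Ptprc-positive cells. Mt2, a metallothionein, had 68.4, 245 and 1164 CPM (3.31, SE 0.86), beside 37.7, 243 and 81.1 CPM in Ptprc-positive cells, and its call was lost without each library's deepest cell.

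Of the genes called lower, Mif had 1418, 218 and 205 CPM (log2 fold change -2.71, SE 0.55, edgeR adjusted p = 0.0168), both KLF2 libraries below vector. In Ptprc-positive cells it ran the other way, at 352, 694 and 476 CPM. Uqcr11, a subunit of respiratory complex III, had 1508, 218 and 342 CPM (-2.41, SE 0.53), beside 275, 226 and 188 CPM in Ptprc-positive cells, and Chchd10, a mitochondrial intermembrane protein, 1035, 81.8 and 228 CPM (-2.72, SE 0.65), beside 65.2, 18.3 and 24.1 CPM in Ptprc-positive cells. None of the 6 genes was called lower by DESeq2, with markers of at least 100 per 10000 UMIs, in sums without mitochondrial and rRNA-overlapping genes or without cell 2 of each KLF2 library, where the log2 fold change of Mif was -2.71, -2.40, -2.78 and -2.79. Tmsb4x, thymosin beta 4, had 1928, 546 and 251 CPM, beside 8772, 7344 and 6462 CPM in Ptprc-positive cells, and its call was lost without each library's deepest cell. Apoa4, an apolipoprotein of fasting liver and gut, had 489 CPM in 58 vector cells and 0 UMIs in all 14 KLF2 cells, at least 13.1-fold lower by a floor of 3 UMIs over those cells (edgeR adjusted p = 0.0413). It too stood lower in Ptprc-positive cells (16.4 CPM against 0.0928 and 0), and its call was lost without each library's deepest cell. The 13 mitochondrially encoded transcripts were lower in both KLF2 libraries and none of 11 tested was called. They summed to 101805, 28776 and 1529 CPM. In KLF2 replicate 1 the 3 cells of 8.91% to 12.6% mitochondrial UMIs carried most of that sum.

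Zonation, cycling and growth genes gave no other call. Arg1, at 198, 436 and 1392 CPM, and Pck1, at 106, 218 and 958 CPM, did not pass (edgeR adjusted p = 0.0882 and 0.118). Neither did Myc (64.0, 245 and 114 CPM, adjusted p = 0.722), Akt1 (354, 245 and 411 CPM, adjusted p = 0.954) or Spc24 (263, 27.3 and 0 CPM, adjusted p = 0.445) in that edgeR test. In Ptprc-positive cells Arg1 stood at 6.31, 2488 and 450 CPM and Pck1 at 4.83, 0.278 and 0.214 CPM. Of 24 mitosis genes 14 were lower in both KLF2 libraries and 1 higher, and 1 was tested. Of those 24, 6 had no UMI in KLF2 members. Of all 12232 genes with a UMI in vector members, 47.4% were lower in both and 18.1% higher. Of 20 MYC target genes 10 were lower in both and 1 higher, with Ncl at 1261, 873 and 456 CPM (adjusted p = 0.456 by edgeR). The MYC targets thus lay near the 47.4% over all genes with a UMI in vector members. Fatty acid oxidation genes had 12 of 18 lower in both, beside that 47.4%, and 0 of 4 tested called. Among the 668 tested genes alone 35.9% were lower and 36.4% higher in both. Acaa1b, a peroxisomal thiolase, had 2498, 409 and 0 CPM (edgeR adjusted p = 0.0657), all its KLF2 UMIs in 1 cell. Spink1 (1.49, 7337 and 0 CPM) and H19 (436, 6792 and 0 CPM) did not pass.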

How the data were processed

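The deposited matrices hold whole-number UMI counts for each gene in each barcode, not normalised. Per the file headers the authors wrote the count matrices with PISA 1.0, and the build was GRCm38 per the submitters' processing notes. Not given in the sources used here: the aligner, the annotation, the use of strand and the cell calling. Each matrix lists only genes with a UMI in that library, and a gene not listed was taken as 0. Vector replicate 1 was not analysed here. The members and gene lists were chosen with earlier results of these data known.

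Members were found by the rule in the report. No doublet caller was run, and the 4 exclusion genes and an alternative without cells of 2 or more UMIs of other cell types' markers stand in for one. CPM scale a gene's UMIs by all UMIs of the members, with exact Poisson 95% intervals, and shares have Wilson 95% intervals. Cells were thinned to 1000 UMIs for shares, leaving out 7 vector members and 40 Ptprc-positive vector cells. UMIs were summed per library and tested with edgeR 4.0.16 (R 4.3.3, TMM, filterByExpr, quasi-likelihood, Benjamini-Hochberg adjusted p under 0.05), 1 vector against 2 KLF2 libraries. The SE is the absolute log2 fold change divided by the square root of F. DESeq2 1.42.0 was an alternative. In data simulated for this comparison with a dispersion of 0.1, the fit called 77 of 149 tested genes changed 4-fold. It called 127 of 153 changed 16-fold, with 1 false call in each case. The dispersion was set and not estimated from these data. Single cells that dominate a library were not simulated, so the rates may not hold for the calls here. Named genes were, per list, up to 6 of highest CPM in vector cells, the 15 of largest variance over mean and, between groups, the 12 largest called rises and falls whose mean reached 30 CPM and which were 2-fold apart in each KLF2 library, with up to 4 called members of each list (2 of highest mean CPM where none was called). Predicted, mitochondrial, ribosomal protein and rule genes were left out of those rises and falls. Positions come from GENCODE vM21 and promoters from RefSeq. Of the named genes, Cmss1 and Filip1l, Apoa4 and Gm47528, Fgg and Gm30097, and Glul and Teddm2 overlap on opposite strands and Oat and Fgfr2 on the same strand, so their UMIs cannot be fully told apart.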

Additional observations from a re-analysis of the deposited data

How the results depend on the processing

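No paired analysis was possible because only 1 replicate number is shared by the libraries with a matrix. The counts of 28 genes higher and 6 lower became 28 and 1 with markers of at least 100 per 10000, 65 and 32 with at most 10% mitochondrial UMIs, 13 and 1 after thinning, 27 and 0 with DESeq2, 25 and 91 without a filter on low counts, 4 and 0 without mitochondrial and rRNA-overlapping genes, and 0 and 0 without cells of mixed markers, where 108 genes could be tested and 10 had an unadjusted p under 0.05. Left out after seeing the data, each library's deepest cell gave 40 and 9, and the second deepest cell of each KLF2 library 12 and 0. The 4 genes called without mitochondrial and rRNA-overlapping genes were Gm49804, Il31ra, Filip1l and Zc3h7a. Without KLF2 replicate 1 all 34 called genes kept their sign, and without KLF2 replicate 2 it was 33 of 34, with no test in either case. Car4, at 0 there, was the exception, all its KLF2 UMIs lying in 1 cell.

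Without a filter on low counts the median log2 fold change over all genes was -1.34 over 13214 genes in place of 0.15 over 668. Below 0 there were Hamp -0.16, Ldha -0.87, Klf6 -0.60, Hp -0.17, Scd1 -0.43, Fads2 -0.23, Mup20 -0.45, B2m -1.16, Jun -0.33, Fos -0.13, Hsp90ab1 -1.34 and Hspa8 -1.14, all except Hsp90ab1 above that median. Hsp90ab1 also turned with at most 10% mitochondrial UMIs (-0.065), with DESeq2 (-0.0017) and without mitochondrial and rRNA-overlapping genes (-0.065). Without each library's deepest cell Ldha (-0.20) and Hspa8 (-0.32) turned lower and Gnmt (0.41) higher, as did Gnmt with markers of at least 100 per 10000 (0.31). Without the second deepest KLF2 cells Akt1 (0.48) and Cd74 (0.042) turned higher and Scd1 (-1.003), Mup20 (-1.76) and B2m (-0.39) lower. None of these genes was called with all members. Over 64 named genes and 9 tested settings, 328 of 464 values kept direction and call, 80 lost a call, 32 gained one and 24 changed sign. Of 128 values without a KLF2 replicate, which had no test, 36 moved by more than their SE and 9 changed sign.

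In vector cells the pericentral sum was 2527 CPM with markers of at least 100, 1875 with at most 10% mitochondrial UMIs, 3916 without cells of mixed markers and 3564 without mitochondrial and rRNA-overlapping genes. The periportal sum was 979 and 1211 in the last 2 settings, and Myc 36.3 and 110 CPM. With at most 10% mitochondrial UMIs 58.6% of cells had at least 2 mitosis UMIs and 28.6% a Myc UMI. Without cells of mixed markers the shares were 17.6% and 5.88%. None of these shares was thinned to equal depth. The vector share of members was 2.84% with markers of at least 25 per 10000, 1.48% with at least 100 and 0.202% without cells of mixed markers, where the KLF2 shares were 0.0161% and 0.0180%.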

Other observations

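In the vector members Scd1, the desaturase that makes oleate, had 571 CPM (516 to 631) in 94 of 180 cells against 44.9 CPM in Ptprc-positive cells, and Fasn, the fatty acid synthase, 202 CPM in 73 cells against 31.2. Acaa2, a mitochondrial thiolase of fat burning, had 863 CPM in 133 cells against 81.6. The 18 fatty acid oxidation genes summed to 6288 CPM and the 21 lipogenic genes to 1601 CPM.

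Car3, a carbonic anhydrase abundant in male liver, had 797 CPM in 117 vector members against 35.1 CPM in Ptprc-positive cells. Among amino acid enzymes Gnmt, which uses up S-adenosylmethionine, had 466 CPM and Mat1a, which makes it, 394 CPM, each in 103 cells, against 18.9 and 19.8 CPM. All 20 further P450 and bile acid genes were detected, 18 of them above Ptprc-positive cells by their intervals. Of the 14260 genes counted above for the fetal list, 11.8% were. The 20 genes summed to 424 CPM against 42.5. Hsd3b7, a bile acid synthesis enzyme, led with 58.0 CPM in 28 cells, whereas Cyp7a1, the rate-limiting enzyme of bile acid synthesis, had 7 UMIs in 5 cells, and Abcb11, the bile salt pump, 14 UMIs in 13 cells.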
